A study of Arabidopsis thaliana with 7 samples.

Results

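The response of Arabidopsis thaliana roots to activation of the ANR1-GR fusion protein was described within the replicate 2 set of ATH1 arrays, which are 1-colour Affymetrix arrays of 22810 probe sets. The set holds 4 of the 7 arrays of the series, chosen by the replicate number in their labels, with 1 array for each of 4 groups. The treated line carries a 35S promoter-driven fusion of ANR1 to the rat glucocorticoid receptor domain (rGR) in ecotype C24 and was given 1 µM dexamethasone for 1 h. The untreated line is the same plant material moved for 1 h to plates with 0 µM. The treated and the untreated wild type were handled in the same way. Their ecotype is given only as a control, so genetic background and transgene cannot be told apart where line and wild type differ. All 4 groups were starved of nitrogen for 2 days, were transferred after 9 days, and were sampled as roots with 20 plants pooled per array. The labels name 1 line, and the 35S promoter drives the fusion throughout the plant and not only in the cells in which ANR1 is normally active.

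ANR1 is a MADS-box transcription factor that acts in the nitrate response of Arabidopsis roots, where it promotes the growth of lateral roots into nitrate-rich zones. A fusion with the hormone-binding part of this receptor is held in the cytoplasm until a steroid such as dexamethasone releases it to the nucleus, so that a short treatment can expose early changes in transcripts. Dexamethasone can itself change transcripts, and the wild type with and without dexamethasone measures that part. The induction term used here was therefore the line with dexamethasone minus the line without, minus the wild type with dexamethasone minus the wild type without. It was computed per probe set on log2(signal + 16), so an induction term of 1 is a 2-fold larger response in the line, and dim probe sets have understated values. With 1 array per group the induction term has no replicate of its own and no test, and its values below are descriptions of these 4 arrays.

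A mean signal of at least 50 over the 4 arrays was required, where the trimmed mean of each array is 100.0. This kept 9990 of 22810 probe sets, of which 5168 had exactly 1 gene in the annotation. The filter used the same 4 arrays as the induction term, so a probe set can pass through the arrays in which it is high. Median signals of the arrays ran from 36.6 to 39.6, and precision is limited by the number of arrays.

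Control transcripts measured at both ends differed between the 4 arrays. The actin 3'/5' signal ratio, which is higher where the 5' end is under-represented, was 0.388 in the treated line, 1.59 in the untreated line, 0.876 in the treated wild type and 0.346 in the untreated wild type. The 5' actin signal was 691.5 in the treated line, 184.3 in the untreated line, 381.9 in the treated wild type and 750.0 in the untreated wild type. The GAPDH ratio was 1.18 in the treated line, 1.55 in the untreated line, 1.33 in the treated wild type and 1.26 in the untreated wild type, and the ubiquitin ratio was 1.48, 2.19, 1.91 and 1.77 in the same order. The untreated line thus had the highest ratio for all 3 control transcripts and the treated wild type the next highest. These 2, called the high-ratio arrays below, enter the induction term with a minus sign, and the arrays with the low actin ratios enter it with a plus sign. The part of the 3'/5' ratio in the results below was not tested.

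**Figure D1:**
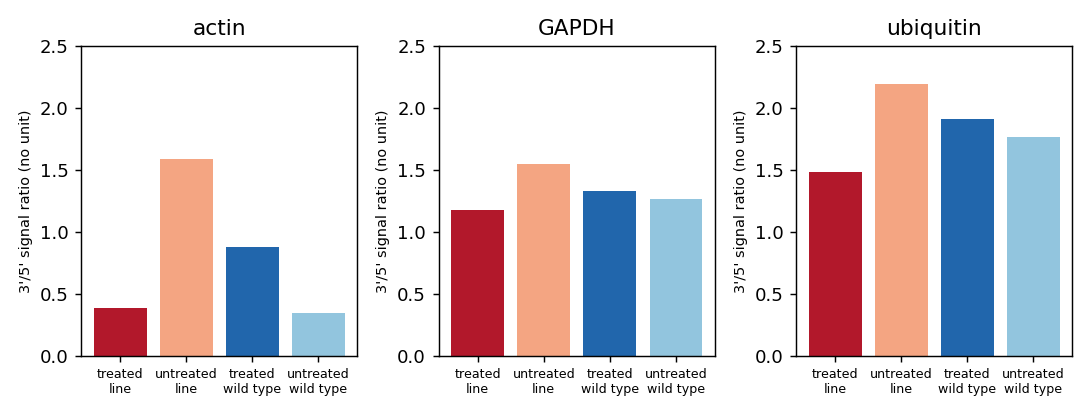
Signal of the 3' probe set over that of the 5' probe set (no unit) for the actin, GAPDH and ubiquitin control transcripts on the 4 replicate 2 arrays, 1 bar per array. The untreated line is highest for each transcript, and the actin ratio is 0.388 in the treated line against 1.59 in the untreated line.

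The induction term was at least 2-fold higher for 558 probe sets (5.59% of those measured) and at least 2-fold lower for 118 (1.18%). Higher terms made up 82.5% of these calls, and 61.0% when each array was centred on its own median, with 415 higher and 265 lower. The median over all measured probe sets was -0.019 on the log2 scale, and -0.15 after that centring. The 558 were not brighter than the rest, with a median mean signal of 120 against 131 over all measured probe sets, whereas the 118 had a median of 215.

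The 4 arrays had the same order in nearly all of these calls. In 554 of the 558 higher probe sets the treated line and the untreated wild type both lay above the high-ratio arrays, and in all 118 lower ones both lay below. Over all measured probe sets these orders held for 28.9% and 29.5%. The term adds the treated line and the untreated wild type and subtracts the high-ratio arrays. Selecting probe sets by its size therefore favours these orders, which are not separate evidence about the high-ratio arrays. The untreated line was the lowest array in 486 of the 558, and it was the array farthest from the median of the other 3 in 387, or 69.4%, against 39.7% of all measured probe sets. The treated line was the farthest array in 98 of the 558 and in 19 of the 118. Across the 9990 probe sets, whose signals within an array share 1 library and scaling, the treated line correlated with the untreated wild type at r = 0.988 and the untreated line with the treated wild type at r = 0.985, against 0.961 for the treated and the untreated line and 0.978 for the treated and the untreated wild type.

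The parts of the induction term were smaller than the term itself. Between the treated and the untreated line 163 probe sets were at least 2-fold higher (1.63%) and 4 lower (0.04%). Between the treated and the untreated wild type 2 were higher (0.02%) and 24 lower (0.24%). Without dexamethasone the line was lower than the wild type for 141 probe sets (1.41%) and higher for 8 (0.0801%), and with dexamethasone it was lower for 2 (0.02%) and higher for 39 (0.39%).

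Differences of the same form, computed between the replicates, show the spread to set beside these counts. The wild type response of replicate 2 minus that of replicate 1 was at least 2-fold higher for 43 probe sets (0.43%) and lower for 88 (0.881%). The untreated line minus the untreated wild type in replicate 2, minus the same in replicate 1, was higher for 110 (1.1%) and lower for 280 (2.8%). The standard deviation over probe sets was 0.56 for the induction term, 0.37 for the first of these differences and 0.47 for the second. These differences share arrays with the induction term.

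The treated line of replicate 2 is the only treated line array analysed here, but the other 3 groups have a replicate 1 array that can take the place of one in replicate 2. With the untreated line and the untreated wild type both taken from replicate 1, 50 probe sets were higher (0.501%) and 16 lower (0.16%). With the wild type response taken from replicate 1, 173 were higher (1.73%) and 9 lower (0.0901%). The third substitution used neither of the high-ratio arrays. It took the treated line minus the untreated wild type of replicate 2. From this the line difference and the wild type response of replicate 1 were subtracted. The untreated wild type of replicate 2 thus has a minus sign here and a plus sign in the induction term. The third substitution equals the first 2 added together minus the induction term, so it is no separate check. Selection on a high term lowers it, and selection on a low term raises it. In the third substitution 155 were higher (1.55%) and 131 lower (1.31%). Of the 558 higher probe sets 38 were also 2-fold higher in the first substitution, 152 in the second, 4 in the third and 3 in all of them. Their median was 1.30 in replicate 2 and 0.49, 0.77 and -0.15 in the 3 substitutions, which share arrays with it. Of the 118 lower probe sets 3, 4 and 2 were also 2-fold lower, and 1 was so in all of them. The 3 higher in all were AT2G29660, described below, and the probe sets 244987_s_at and 252315_at, which were named after their values were seen. For 244987_s_at, which the annotation pairs with several genes, the term was 2.54 in replicate 2 and 1.52, 2.16 and 1.14 in the substitutions. For 252315_at it was 1.17 in replicate 2 and 1.12, 1.14 and 1.09 in the substitutions. The 1 lower in all was AT3G24480.

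**Figure D2:**
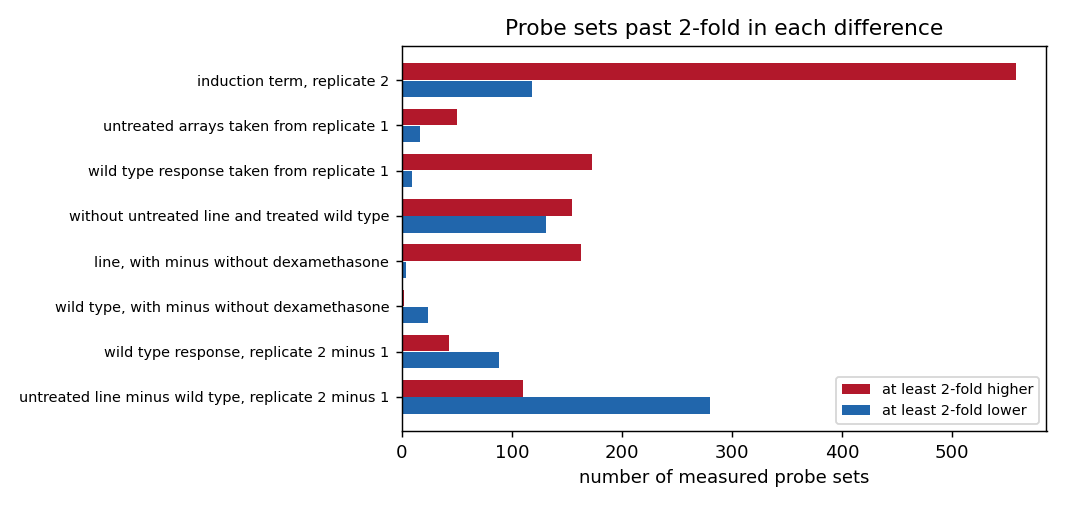
Number of the 9990 measured probe sets at least 2-fold higher (red) or lower (blue) in each difference, with the induction term at the top, its 3 substitutions below it, then its parts and the replicate differences of the same form. The induction term has 558 higher and 118 lower, and without the high-ratio arrays the counts are 155 and 131.

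The 12 genes with the highest induction terms all had their lowest signals in the high-ratio arrays, an order that selection on the term favours. AT4G32020, ranked 3 of 9990, had signals of 262.7 in the treated line, 46.2 in the untreated line, 78.9 in the treated wild type and 234.5 in the untreated wild type. Its induction term was 3.56, made of 2.16 in the line and -1.40 in the wild type. The treated line was close to the untreated wild type, and the untreated line stood lowest. In replicate 1 its signal was 406.4 in the untreated line, 377.9 in the treated wild type and 259.8 in the untreated wild type, and without the high-ratio arrays the term was -0.98.

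AT4G05150 had an induction term of 3.27, with signals of 255.7 in the treated line, 54.4 in the untreated line, 76.8 in the treated wild type and 215.8 in the untreated wild type. ARA12, which encodes a subtilisin-like protease, had 224.8 in the treated line, 57.3 in the untreated line, 70.2 in the treated wild type and 183.7 in the untreated wild type, a term of 2.93. Both repeated the array order of AT4G32020. For ARA12 the term was 1.47 with the untreated arrays of replicate 1, 1.75 with the wild type response of replicate 1 and 0.30 without the high-ratio arrays.

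AT3G13670 (2.83), AT5G45510 (2.82), AT1G76010 (2.75), AT3G54580 (2.67) and AT5G41950 (2.62) also had both high-ratio arrays lowest, with induction terms on the log2 scale in brackets. AT1G68490 differed in that its signal in the untreated line, 20.5, stood far below the other 3 arrays, which were 166.7 in the treated line, 78.2 in the treated wild type and 110.4 in the untreated wild type. Its term of 2.75 came from 2.32 in the line and -0.42 in the wild type. In replicate 1 the untreated line had 173.1, the treated wild type 149.1 and the untreated wild type 182.4, and its term with the untreated arrays of replicate 1 was 1.02.

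The 2 highest terms of all were those of probe sets without a gene in the annotation. Probe set 265633_at had signals of 215.3 in the treated line, 10.4 in the untreated line, 25.1 in the treated wild type and 192.6 in the untreated wild type, a term of 5.47. Probe set 246935_at had 176.0 in the treated line, 9.9 in the untreated line, 16.0 in the treated wild type and 123.5 in the untreated wild type, a term of 5.01. In both, the treated line and the untreated wild type had clear signals and the other 2 arrays did not. Without the high-ratio arrays the terms were -0.86 and -0.80.

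The lowest induction terms were smaller in size. AT1G70880 was the lowest of all, with signals of 23.6 in the treated line, 79.3 in the untreated line, 74.0 in the treated wild type and 45.8 in the untreated wild type and a term of -1.81. The treated line was the lowest of the 4 arrays, and it was also below all 3 replicate 1 arrays, which had 83.0 in the untreated line, 61.8 in the treated wild type and 69.2 in the untreated wild type. The term kept its sign in the 3 substitutions, at -1.40, -1.14 and -0.73.

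CML23, which encodes a calmodulin-like calcium sensor, had the next lowest term, -1.71, with signals of 130.8 in the treated line, 162.3 in the untreated line, 144.0 in the treated wild type and 43.4 in the untreated wild type. Here the untreated wild type alone stood apart, and the treated and the untreated line differed by -0.28. With replicate 1 arrays substituted the term of CML23 was 0.22, 0.32 and 2.25. LSM3B, an Sm-like protein of RNA processing, had 250.5 in the treated line, 450.4 in the untreated line, 327.9 in the treated wild type and 187.1 in the untreated wild type, a term of -1.57 that was 1.18 without the high-ratio arrays.

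AT3G24480 had a term of -1.51, with 56.1 in the treated line, 139.0 in the untreated line, 87.2 in the treated wild type and 61.9 in the untreated wild type. It was the 1 lower probe set that stayed past 2-fold in all 3 substitutions, at -1.05, -1.78 and -1.33, and in replicate 1 its wild type response was 0.68. AT1G04985 (-1.49), AT3G13910 (-1.46), AT2G39500 (-1.43), AT3G49100 (-1.42), AT1G55270 (-1.41), AT1G54290 (-1.36), AT2G47200 (-1.35) and AT1G26420 (-1.35) completed the 12 lowest genes. In each of these both high-ratio arrays were above the other 2. Probe sets 266743_at (-1.44) and 254721_at (-1.23) were the lowest without a gene.

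**Figure D3:**
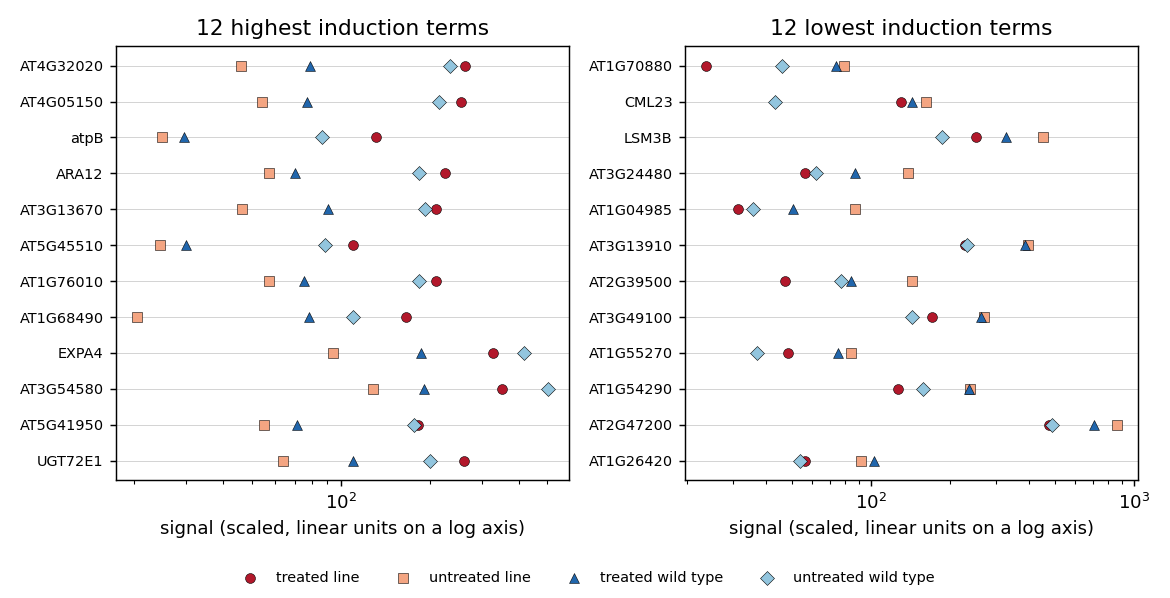
Signal (scaled linear units, log axis) of the 12 genes with the highest and the 12 with the lowest induction terms on the 4 replicate 2 arrays, 1 symbol per array. On the left the treated line and the untreated wild type lie above the other 2 arrays, as for AT4G32020 at 262.7 and 234.5, and on the right they lie below them. Selection on the induction term favours these orders.

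How far each array stood outside the other 3 was counted next. The treated line was at least 2-fold above all 3 other arrays for 1 probe set and 2-fold below all of them for 0, whereas the untreated line was so for 0 and 4. At a gap of 0.5 on the log2 scale the treated line was above the other 3 for 16 probe sets and below them for 9, the untreated line for 22 and 135, the treated wild type for 1 and 9, and the untreated wild type for 4 and 21. Of the 558 higher probe sets the treated line was the highest array in 323 and the untreated wild type in 234. Of the 118 lower ones the treated line was the lowest in 45 and the untreated wild type in 73.

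Among genes with the treated line highest, rpl32 and clpP of the plastid genome were among the 3 with the widest gaps above the next array. For rpl32, a ribosomal protein gene, the signal was 138.6 in the treated line, 54.8 in the untreated line, 65.3 in the treated wild type and 74.6 in the untreated wild type, with a gap of 0.77 and an induction term of 1.28. For clpP, which encodes a subunit of the plastid Clp protease, it was 96.2 in the treated line, 33.8 in the untreated line, 45.6 in the treated wild type and 58.2 in the untreated wild type, with a term of 1.44. For both genes the replicate 1 arrays were all brighter than the treated line, from 250.4 to 364.5 for rpl32 and from 168.0 to 393.2 for clpP.

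AT3G51990 had 120.6 in the treated line, 54.0 in the untreated line, 67.0 in the treated wild type and 73.9 in the untreated wild type. Its term was 1.08, and the replicate 1 signals, from 71.9 to 85.8, lay below the treated line as well. AT2G29660 had 143.8 in the treated line, 59.7 in the untreated line, 80.0 in the treated wild type and 99.9 in the untreated wild type. Its term of 1.35 stayed past 2-fold in the 3 substitutions, at 1.01, 1.39 and 1.05, while its replicate 1 signals, from 311.2 to 390.7, were all above the treated line. AT5G37540 (1.78) and AT3G06750 (1.31) also had the treated line highest, as did atpB and AT1G68490.

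Among genes with the treated line lowest, AT1G70880 had a gap of 0.64 below the next array and AT2G39500 a gap of 0.56. AT2G39500 had 47.3 in the treated line, 143.1 in the untreated line, 84.2 in the treated wild type and 77.2 in the untreated wild type, with a term of -1.43 that was -0.91, -1.62 and -1.10 in the substitutions. AT1G54290 had 127.4 in the treated line, 237.6 in the untreated line, 236.7 in the treated wild type and 158.0 in the untreated wild type. AT1G18940 (-1.30), AT4G31875 (-1.08), AT2G17710 (-1.05), AT3G18250 (-1.04) and AT2G37750 (-1.01) were the others by the naming rule, beside AT1G70880. The replicate 1 signals of AT2G39500, from 42.5 to 55.7, spanned the treated line, so that for this gene the other 3 arrays of replicate 2 stood above replicate 1.

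A fit by limma across all 7 arrays, with the 4 groups and the replicate number as a block, estimated the same difference of responses. It also draws on the replicate 1 arrays, so its errors do not apply to the replicate 2 terms above. Its estimate was 2.05 ± 0.84 (SE) for AT4G32020, 1.25 ± 0.25 for AT2G29660, -1.45 ± 0.30 for AT1G70880 and -1.45 ± 0.31 for AT3G24480. By limma 0 of the 9990 probe sets passed an adjusted p of 0.05, the lowest adjusted p was 0.709, and 687 had an unadjusted p under 0.05. With no block in the limma fit 0 passed, and 78 were under 0.05 before adjustment. The residual degrees of freedom were 2 and 3, and the single treated line array was assumed to vary like the other groups.

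Gene families were ranked by the median induction term of their measured genes, for the 19 lists with at least 5 of them. Over all measured probe sets the median was -0.019 and 48.5% were above 0. Chloroplast-encoded genes (1.28), expansins (0.95) and UDP-glycosyltransferases (0.43) had the highest medians, and autophagy genes (-0.74), glutathione transferases (-0.48) and CYP71B cytochromes P450 (-0.44) the lowest. The signs of these 6 medians were the same with quantile normalization and with centring on the median. The other medians lay between 0.32 and -0.38. The ranking depends on the filter. With no filter on signal the median of chloroplast-encoded genes was 0.32, below 0.41 for cellulose synthases and relatives. Members of a family were measured on the same arrays and are not replicates.

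**Figure D4:**
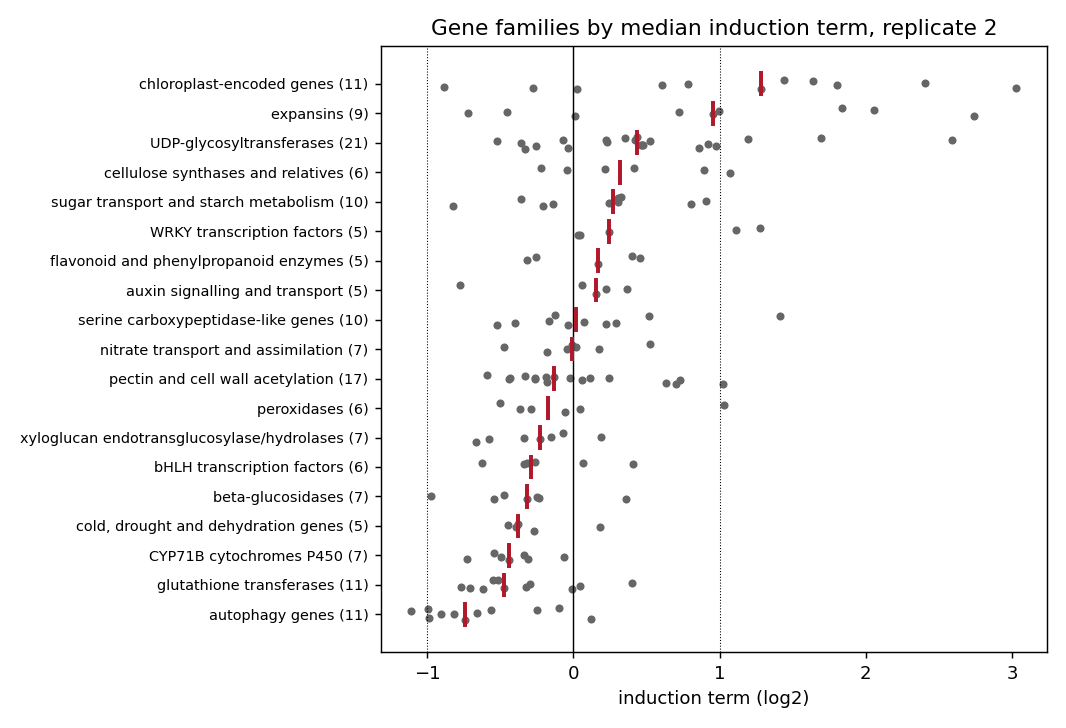
Induction term (log2) of each measured member (grey points) and the median (red line) of the 19 families with at least 5 measured genes, with the number of probe sets in brackets and dotted lines at 2-fold. The medians run from 1.28 for chloroplast-encoded genes to -0.74 for autophagy genes.

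Plastid-encoded genes are transcribed inside the plastid from its own genome and encode photosynthetic complexes and part of the plastid gene expression machinery. Of 69 in the annotation 11 passed the filter on signal, 9 of these had induction terms above 0, 6 were at least 2-fold higher and 0 lower, beside 5.59% and 1.18% of all probe sets. The beta subunit gene of the ATP synthase, atpB, had 132.2 in the treated line, 24.9 in the untreated line, 29.6 in the treated wild type and 86.7 in the untreated wild type, a term of 3.03. The cytochrome b6 gene petB had 201.5 in the treated line, 53.8 in the untreated line, 95.4 in the treated wild type and 173.0 in the untreated wild type, a term of 2.40. Both followed the order of arrays seen in most calls. The genes atpB, psbJ and clpP passed the signal filter only through the treated line and the untreated wild type. The term adds these arrays, so the filter favours members with high terms, and the counts above depend on it. The list's median, 1.28, was 1.03 with a mean signal of at least 25, 0.61 with at least 100 and 0.32 with no filter.

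Terms of 1.80 for the photosystem II gene psbJ and 1.64 for the ATP synthase gene atpE stood with these, and psbZ (0.78) and psbM (0.61) were below 2-fold. The ribosomal protein genes differed in sign, with 1.28 for rpl32, 0.03 for rps3 and -0.89 for rpl33. For rps3 the signal was 366.9 in the treated line, 198.5 in the untreated line, 245.8 in the treated wild type and 133.5 in the untreated wild type, so both treated arrays were above their untreated partners. The list's median was 0.71 with the untreated arrays of replicate 1, 0.71 with its wild type response and 0.29 without the high-ratio arrays. In replicate 1 atpB had 483.9 in the untreated line, 564.4 in the treated wild type and 414.2 in the untreated wild type, all above the 4 arrays of replicate 2.

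Expansins are wall proteins that loosen growing cell walls, and 9 of 19 in the annotation were measured. Terms were above 0 for 7, at least 2-fold higher for 3 and 2-fold lower for 0, beside 5.59% and 1.18% of all measured probe sets. EXPA4 had 328.3 in the treated line, 94.3 in the untreated line, 186.7 in the treated wild type and 417.5 in the untreated wild type, a term of 2.74. EXPB3 had 425.8 in the treated line, 145.1 in the untreated line, 308.1 in the treated wild type and 474.3 in the untreated wild type, a term of 2.05. In both the untreated wild type was the highest array and the treated line the next.

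The root hair expansin genes EXPA7 and EXPA18 differed from each other. EXPA7 had 86.6 in the treated line, 27.0 in the untreated line, 38.2 in the treated wild type and 65.0 in the untreated wild type, a term of 1.83. It passed the signal filter only through the treated line and the untreated wild type. EXPA18 had 200.1 in the treated line, 194.1 in the untreated line, 313.1 in the treated wild type and 307.1 in the untreated wild type, a term of 0.01. In replicate 2 the EXPA18 signals were lower in the line than in the wild type, with or without dexamethasone. In replicate 1 they lay closer, at 179.1 in the untreated line, 177.4 in the treated wild type and 193.6 in the untreated wild type. EXPA9 stood at 0.95, the expansin-like genes EXLA1 at -0.45 and EXLB1 at -0.72, and EXPA15 at 1.00, just short of 2-fold. The expansin median was -0.11 with the untreated arrays of replicate 1, 0.87 with the wild type response of replicate 1 and -0.36 without the high-ratio arrays.

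UDP-glycosyltransferases attach sugars to hormones and specialised metabolites. Of 21 measured, 15 had terms above 0, 3 were at least 2-fold higher and 0 lower, beside 5.59% and 1.18% of all measured probe sets. UGT72E1 and UGT72E2, which glucosylate lignin precursors, had the largest terms, 2.59 and 1.69. For UGT72E1 the signal was 262.2 in the treated line, 63.7 in the untreated line, 110.0 in the treated wild type and 201.2 in the untreated wild type, against 488.7 to 655.2 in replicate 1. UGT87A2 had a term of 1.20, and UGT76B1, at -0.52, was the lowest member. Without the high-ratio arrays the list's median was -0.02.

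Other lists held single genes past 2-fold, beside 5.59% of all measured probe sets at least 2-fold higher and 1.18% lower. Among 5 measured WRKY transcription factors WRKY6 stood at 1.27 and WRKY22 at 1.11, and the other 3 lay between 0.03 and 0.24. For WRKY6 the signal was 285.6 in the treated line, 147.2 in the untreated line, 188.9 in the treated wild type and 252.2 in the untreated wild type. At least 2-fold higher were the protein kinase gene ATSIK (1.60), the serine carboxypeptidase-like gene scpl35 (1.41) and the xyloglucan backbone synthase gene CSLC04 (1.07). So were the peroxidase gene AT5G64120 (1.03) and 1 of the 2 probe sets of AT2G31110 (1.02). The other probe set of AT2G31110, with a mean signal of 97.6 against 50.8, stood at 0.25. PRP39 (1.41), a pre-mRNA processing factor, was matched to the list of proline-rich proteins by its symbol only. The term of ATSIK was 0.06 and that of WRKY22 was -0.49 without the high-ratio arrays.

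Autophagy genes had the lowest median. ATG8 proteins are attached to the forming autophagosome membrane, and ATG3 is the conjugating enzyme in that attachment. All 11 listed genes were measured, 10 had terms below 0, and 1 was past 2-fold. Of all measured probe sets 48.5% were above 0 and 1.18% at least 2-fold lower. ATG8C had 233.6 in the treated line, 376.1 in the untreated line, 357.3 in the treated wild type and 256.1 in the untreated wild type, a term of -1.11. ATG8D and ATG8H stood at -0.99, ATG8E at -0.91 and ATG8G at -0.82.

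The lower autophagy terms came from both sides, with a median of -0.38 between the treated and the untreated line and 0.32 between the treated and the untreated wild type. In replicate 1 the median wild type response of these genes was -0.10. ATG3 differed from the ATG8 genes, with 216.3 in the treated line, 202.6 in the untreated line, 222.6 in the treated wild type and 227.8 in the untreated wild type, a term of 0.12. The median of the list was -0.30 and -0.24 in the first 2 substitutions and 0.06 without the high-ratio arrays.

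**Figure D5:**
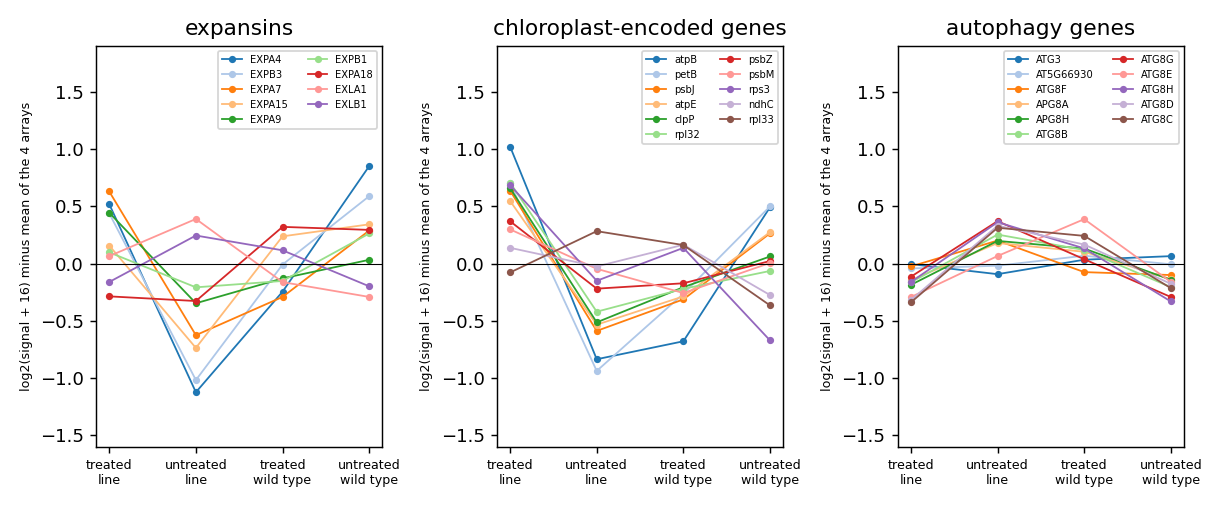
Profile of each measured expansin, chloroplast-encoded and autophagy gene over the 4 replicate 2 arrays, as log2(signal + 16) minus the gene's mean over the 4 arrays, 1 line per gene. EXPA4 and atpB are low in the high-ratio arrays (untreated line and treated wild type), and ATG8C is high in both.

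CYP71B genes encode cytochrome P450 oxidases of specialised metabolism. All 7 measured members, of 19 in the annotation, had terms below 0, from -0.07 for CYP71B29 to -0.73 for CYP71B37, and 0 were past 2-fold. Of all measured probe sets 48.5% were above 0 and 1.18% at least 2-fold lower. CYP71B37 had 147.7 in the treated line, 212.9 in the untreated line, 202.3 in the treated wild type and 168.3 in the untreated wild type. Its term was -0.68, -0.65 and -0.60 in the 3 substitutions. The list's median, -0.44, was -0.43, -0.29 and -0.34 in them, and the treated line had the lowest signal of the 4 arrays for CYP71B29, CYP71B6, CYP71B23, CYP71B26 and CYP71B37.

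Glutathione transferases conjugate glutathione to reactive compounds. Of 11 measured, 9 had terms below 0 and 0 were past 2-fold, from 0.40 for GSTU18 to -0.77 for GSTU22. Beside these, 48.5% of all measured probe sets were above 0 and 1.18% at least 2-fold lower. GSTU22 had 1324 in the treated line, 1855 in the untreated line, 1883 in the treated wild type and 1541 in the untreated wild type. The median of the list was -0.05 and -0.09 in the first 2 substitutions and 0.10 in the third. Of 7 xyloglucan endotransglucosylase/hydrolases, which cut and rejoin wall xyloglucan, 6 had terms below 0, and their median was -0.23, with -0.28, -0.21 and -0.37 in the substitutions.

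Of 42 MADS-box genes in the annotation 4 were measured. AGL21, a close relative of ANR1 that acts in roots, had 55.6 in the treated line, 76.3 in the untreated line, 63.0 in the treated wild type and 35.2 in the untreated wild type, a term of -0.99 that was -0.01, -0.04 and 0.94 in the substitutions. AGL16 stood at -0.42, AGL26 at -0.34 and AGL18 at 0.22. No measured probe set was paired with ANR1 itself.

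Nitrate transport and assimilation genes had a median of -0.01, with 3 of 7 above 0 and 0 past 2-fold. Of all measured probe sets 48.5% were above 0, 5.59% at least 2-fold higher and 1.18% lower. The 7 were members of the transporter family that takes up nitrate and other solutes, and ran from 0.52 for AT1G72125 to -0.48 for AT2G26690. GTR1 and GTR2, which carry glucosinolates, stood at -0.01 and -0.05. Among 5 auxin genes the auxin-conjugating enzyme genes WES1 (0.37), GH3.17 (0.22) and GH3.3 (0.15) were near the background, and LBD16, a regulator of lateral root initiation, stood at -0.78. LBD16 had 69.6 in the treated line, 70.8 in the untreated line, 95.6 in the treated wild type and 50.1 in the untreated wild type. Its term came from 0.76 in the wild type, against -0.02 in the line. In the substitutions it was -0.66, -0.20 and -0.08.

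Probe set 263295_at, without a gene in the annotation, separated the line from the wild type most. It had 698.8 in the treated line, 303.0 in the untreated line, 9.4 in the treated wild type and 23.5 in the untreated wild type, and it was the probe set at least 2-fold above all 3 other arrays in the treated line. In replicate 1 the untreated line had 951.3. AT4G22450 was lower in the line, with 69.7 in the treated line, 70.7 in the untreated line, 155.5 in the treated wild type and 155.4 in the untreated wild type, and its induction term was -0.02. The arrays labelled as the line thus differed from those labelled as the wild type at both probe sets. Markers of root tissue could be checked only for the root hair genes EXPA7 and EXPA18, both measured. The other root markers were not matched in the annotation. Of shoot photosynthetic markers RCA was matched. It had 145.9 in the treated line, 124.4 in the untreated line, 103.6 in the treated wild type and 121.1 in the untreated wild type. The flower and pollen marker AGL104 was matched but did not pass the filter, with signals from 5.5 to 11.8.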

How the data were processed

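Total root RNA was labelled as biotin cRNA and hybridised to 7 arrays, per the labels' protocols. The deposited values are linear intensity values, 1 scaled signal per probe set, with a 2% trimmed mean of 100.0 on each array. How probes were summarised is not given in the sources used here. Values stayed on the deposited scale, 64 control probe sets were left out, and differences were taken on log2(signal + 16) for probe sets with a mean of at least 50 over the 4 replicate 2 arrays (49.98 was the highest mean left out and 50.0 the lowest kept).

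Gene names came from the platform annotation, updated by gene ID to RefSeq TAIR10.1 (13436 of 13513 probe sets with 1 gene). Of the measured probe sets 4607 had no listed gene and 215 several, and 369 end in _s_at or _x_at, which can read more than 1 transcript. Named genes were the 12 highest and 12 lowest induction terms, up to 8 per direction with the treated line outermost, up to 4 per list past 2-fold, the outer members of the 3 highest and 3 lowest lists, MADS-box genes, line markers and up to 2 probe sets without a gene per direction. Members of families outside this rule, such as EXPA15, psbZ, psbM and rps3, were chosen after their values were seen. The 43 lists were patterns on gene symbols, and plastid genes were taken by chromosome. The members and lists were chosen with earlier results of these data known. Alternatives were other offsets, filters and scalings, 3 substitutions of replicate 1 arrays and the fits below. Lists with under 5 measured genes were not ranked, and a planned motif search in promoters was not run, since no promoter sequence was used here.

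The replicate numbers come from the labels. Deviations from the group means correlated between same-numbered arrays, at r = 0.821 for the untreated line with the treated wild type. For the untreated line with the untreated wild type r was 0.455, and for the treated with the untreated wild type 0.604. Same-numbered arrays thus deviated together. The highest r is that of the groups with the high-ratio arrays, where shared replicate and shared control ratio cannot be told apart. limma 3.58.1 in R 4.3.3 (lmFit, eBayes with trend) fitted the 7 arrays as an alternative, and Python 3.11.15 did the rest. The computations were checked on simulated data.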

Additional observations from a re-analysis of the deposited data

Results flagged for a closer look

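For 21 of the 69 named genes and probe sets the treated minus the untreated line had one sign and the wild type responses of both replicates had the other. Most of the 69 were named for the size of their induction term, which favours opposite signs within replicate 2. Only the sign of the replicate 1 response was free of that selection. No share over all measured probe sets is given for this count, so it is not a result about these genes. The difference between the responses was not tested, since the line has 1 treated array. The induction terms above 0 were 2.93 for ARA12, 2.83 for AT3G13670, 2.75 for AT1G76010, 2.75 for AT1G68490, 2.59 for UGT72E1, 1.69 for UGT72E2, 1.41 for scpl35, 1.41 for PRP39, 1.35 for AT2G29660 and 1.08 for AT3G51990. Those below 0 were -0.42 for AGL16, -0.52 for UGT76B1, -0.72 for EXLB1, -0.73 for CYP71B37, -1.35 for AT1G26420, -1.36 for AT1G54290, -1.43 for AT2G39500, -1.44 for 266743_at, -1.46 for AT3G13910, -1.49 for AT1G04985 and -1.51 for AT3G24480.

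Control transcripts lie outside the induction term. Their actin 3'/5' ratio was above that of the untreated wild type (0.346) in the untreated line (1.59), in the treated wild type (0.876) and, by less, in the treated line (0.388).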

How the results depend on the processing

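With 1 treated line array no replicate could be left out of that group. The range over settings shows how far the results depend on the processing and on the other arrays. Every setting keeps the same treated line array, so the variation of that group between replicates was not measured. Against 558 higher and 118 lower probe sets, adding 1 before the log gave 747 and 213, adding 64 gave 259 and 28, a mean signal of at least 25 gave 711 and 135, of at least 100 gave 328 and 89, and of at least 50 over 7 arrays gave 606 and 116. No filter gave 826 and 165, quantile normalization 495 and 142, and centring on the median 415 and 265. Taking the untreated arrays from replicate 1 gave 50 and 16, the wild type response of replicate 1 gave 173 and 9, and avoiding both high-ratio arrays gave 155 and 131. The limma fit with the replicate block gave 188 higher and 5 lower estimates past 2-fold, and that with no block 74 and 5.

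A filter on signal cannot change the term of a single gene. Over the named genes and the other 9 alternatives, 37 terms past 2-fold changed sign. Of the rest, 310 moved by at least the spread of the gene's wild type response between replicates and 274 moved by less. With the wild type response of replicate 1 the move is that difference between replicates itself. The 68 terms counted as moved in that setting were therefore fixed in advance. With untreated arrays from replicate 1, CML23 was at 0.22, EXPB3 at -0.016 and 263295_at at -0.38, and with the wild type response of replicate 1, CML23 was at 0.32. Avoiding both high-ratio arrays, the terms that had been above 0 were -0.98 for AT4G32020, -0.62 for AT4G05150, -0.12 for atpB, -0.0058 for AT3G13670, -0.38 for AT5G45510, -0.59 for EXPA4, -1.57 for AT3G54580, -0.42 for AT5G41950, -1.06 for petB, -0.10 for psbJ, -0.046 for UGT72E2, -0.41 for UGT87A2, -0.78 for EXPB3, -0.0075 for AT2G31110, -0.34 for AT5G64120, -0.49 for WRKY22, -0.80 for 246935_at, -0.86 for 265633_at and -1.19 for 263295_at. Those that had been below 0 were 2.25 for CML23, 1.18 for LSM3B, 0.93 for AT3G49100, 0.21 for AT1G55270, 0.36 for AT2G47200, 0.23 for AT2G37750, 0.13 for AT4G31875, 0.076 for AT2G17710, 0.012 for 266743_at and 0.93 for 254721_at. With no block rpl32 was at -0.00065, AT3G18250 at 0.31, atpE at -0.28 and AT5G64120 at -0.027. With the replicate block no named gene past 2-fold changed sign. The setting that avoids both high-ratio arrays also counts the replicate 1 array for untreated wild type roots 2 times. In that setting the untreated wild type of replicate 2 has a minus sign, against a plus sign in the induction term. Selection on the size of the term therefore favours changes in sign there. The cause of the changes in sign was not tested.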
